A study of Homo sapiens with 24 samples.

Results

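Chemokine genes of A549, a human lung adenocarcinoma cell line, were followed across RNA-seq libraries of cells depleted of the transcription factors MYBL2 and FOXM1 or treated with FDI-6. The 10 genes were CXCL1, CXCL2, CXCL3, CXCL5, CXCL6, CXCL8, CXCL16, CCL2, CCL20 and CX3CL1. They were chosen by their depth-scaled counts (CPM) in these same libraries, each treatment against its own control, with earlier results known, and all 10 were found among the 58721 genes that each count file holds. Their levels, fold changes and adjusted p-values in these comparisons are therefore descriptions of genes picked for them and not independent evidence.

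PolyA RNA was sequenced in 24 libraries, all from A549 cells. In the single knockdowns, 4 libraries came from cells transfected with 25 nM of siRNAs against MYBL2 (siMYBL2) and 4 from cells given 25 nM of siRNAs against FOXM1 (siFOXM1). Another 4 came from cells given scrambled siRNA (siControl). The double knockdown had 3 libraries with both target siRNAs (siBoth) and 3 of its own control (siControl_Both), and the drug experiment had 3 libraries after 20 μM FDI-6 for 24 h (FDI6) and 3 controls (control_FDI6). FDI-6 is a small-molecule inhibitor named for the forkhead domain, the DNA-binding part of FOXM1. The labels call the cells of control_FDI6 only controls, while the study names DMSO as what FDI-6 was compared with. The siMYBL2 and siFOXM1 comparisons use the same 4 siControl libraries, so their fold changes are not independent of each other. The labels number the libraries of each group, name no culture and describe RNA from 3 replicates where the single knockdowns have 4. The p-values therefore rest on the spread between these libraries, which may in part be technical. The fits also draw on the spread of other genes, so a fitted error is not the spread of that gene alone.

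Chemokines are small secreted proteins that guide migrating cells through receptors on their surface. CXCL1, CXCL2, CXCL3, CXCL5, CXCL6 and CXCL8 carry the glutamate-leucine-arginine (ELR) motif, bind CXCR2 and attract neutrophils, and CXCL6 and CXCL8 also bind CXCR1. CCL2 attracts monocytes through CCR2, and CCL20 attracts CCR6-bearing lymphocytes and dendritic cells. CXCL16 and CX3CL1 are made as transmembrane proteins that the proteases ADAM10 and ADAM17 can release, and their receptors are CXCR6 and CX3CR1. In epithelial cells many of these genes are switched on by NF-κB after cytokines such as interleukin 1 or tumour necrosis factor.

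The ELR chemokine genes lie together on chromosome 4. In GENCODE V44 coordinates on hg38, CXCL8 occupies chr4:73740519-73743716, CXCL6 chr4:73836640-73849064, CXCL1 chr4:73869393-73871308, CXCL5 chr4:73995642-73998677, CXCL3 chr4:74036589-74038807 and CXCL2 chr4:74097040-74099196. The first 3 of these lie on the plus strand and the others on the minus strand. CCL2 (chr17:34255274-34257208) and CXCL16 (chr17:4733533-4739928) lie on chromosome 17, CCL20 (chr2:227805739-227817564) on chromosome 2 and CX3CL1 (chr16:57372477-57385044) on chromosome 16. Counting was over whole genes, so all exons of a gene, the untranslated parts included, contribute to its value.

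Promoters of 7 of the 10 genes were found in the RefSeq promoter table (GRCh38.p14), and the stretch from 110 to 51 bases before the RefSeq start site is shown because 6 of these 7 genes share a word in it. These start sites can differ from the GENCODE gene starts given above. The stretches of CXCL3 and CCL20 lie inside the GENCODE spans of their genes. The capitals mark GGAATTTCC, and in CCL20 they mark the match to the kappa-B motif. Each stretch is given 5′ to 3′ on the strand of its gene.
CXCL1, chr4:73869283-73869342, plus strand: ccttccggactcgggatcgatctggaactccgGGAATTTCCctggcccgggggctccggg
CXCL2, chr4:74099246-74099305, minus strand: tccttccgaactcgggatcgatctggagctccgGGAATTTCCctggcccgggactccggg
CXCL3, chr4:74038740-74038799, minus strand: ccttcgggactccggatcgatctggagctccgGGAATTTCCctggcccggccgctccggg
CXCL5, chr4:73998728-73998787, minus strand: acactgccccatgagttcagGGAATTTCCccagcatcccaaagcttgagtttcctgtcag
CXCL6, chr4:73836568-73836627, plus strand: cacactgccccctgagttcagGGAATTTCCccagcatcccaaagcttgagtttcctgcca
CXCL8, chr4:73740459-73740518, plus strand: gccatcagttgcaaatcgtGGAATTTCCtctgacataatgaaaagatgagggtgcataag
CCL20, chr2:227813732-227813791, plus strand: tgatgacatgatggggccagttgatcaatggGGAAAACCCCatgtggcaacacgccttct

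The word GGAATTTCC was found in the 300-base window (250 bases before and 50 after the start) of all 6 ELR chemokine genes. Both strands were searched. Of 35116 RefSeq promoters of the same length, 162 hold it, a share of 0.461%. It was picked after the promoters of these genes had been read, so the contrast with 0.461% is a description. The stretches of CXCL1, CXCL2 and CXCL3 resemble each other around the word, and those of CXCL5 and CXCL6 form another pair. The 10-letter kappa-B motif, whose matches overlap the word except in CCL20, was found in the windows of CXCL1, CXCL2, CXCL3, CXCL5, CXCL6 and CCL20 and in 5.91% of all windows. The AP-1 motif TGANTCA was found in the window of CXCL8 alone among the 7 genes, and in 7.71% of all windows. The forkhead word TAAACA, held by 12.3% of all windows, and the cell cycle homology region word TTTGAA, held by 15.2%, were in none of the 7 windows. A match shows the letters only, and a missing match says only that those letters are not in this window.

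A549 cells expressed the 10 genes at very different levels. CPM are counts scaled to the library's total on genes, and levels of different genes are compared per kilobase of annotated exon. Over the 24 libraries the mean CPM per kilobase was 344.5 for CXCL5, 89.7 for CXCL1, 74.4 for CXCL8, 50.4 for CXCL2, 36.6 for CCL2, 12.8 for CXCL3, 8.46 for CXCL16, 1.85 for CCL20, 0.144 for CX3CL1 and 0.106 for CXCL6. CXCL5 made up 39.4% to 85.4% of the summed CPM of the 10 genes in every library. CXCL8 ranged most widely among the genes with counts in every library, from 1.74 to 1098.1 CPM, a ratio of 632.9. CXCL16 ranged least, from 16.6 to 36.8 CPM. CXCL6 had 0 to 23 counts per library, with 0 in 5 libraries, and CCL20 had 0 to 461 counts, with 0 in 1 library.

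Other chemokine genes were almost silent. Of the 38 other chemokine symbols looked up, 36 were found, 10 of these had no count in any library, and 5 had a mean of at least 5 counts. The most counted were CCL26 with a mean of 21.5 counts and CCL5 with a mean of 16.4, close to CX3CL1 with 21.46 and above CXCL6 with 5.375. A library without a count allows up to 3 counts, which covers counting error only.

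The 3 control groups differed in the chemokines before any treatment is considered. CXCL8 stood at 11.6 to 103.5 CPM in siControl, at 312.2 to 538.8 in siControl_Both and at 1.74 to 2.65 in control_FDI6. How many of all genes differ as much between the control groups was not counted. CCL20 had 0.209 to 1.12 CPM in siControl, 6.09 to 13.1 in siControl_Both and 0 to 0.053 in control_FDI6. CXCL16 behaved otherwise, with 20.9 to 32.4, 16.6 to 19.2 and 21.2 to 22.4 CPM. The order by CPM per kilobase also changed. In siControl the ranges of CXCL1 (8.79 to 82.5), CXCL2 (6.0 to 43.8) and CXCL8 (4.47 to 40) overlapped, and so did those of CXCL16, CCL2 and CXCL3. In siControl_Both CXCL1 (132.0 to 273.4), CXCL8 (120.6 to 208.2) and CXCL2 (109.0 to 141.0) overlapped. In control_FDI6 CXCL8 (0.670 to 1.02) lay below CXCL3 (2.03 to 2.70), and CXCL5 (106.1 to 110.1) was the only gene above CXCL16 (7.59 to 8.01). The control groups belong to separate experiments, and the share of read pairs that did not align was 1.97% to 2.12% in siControl, 7.68% to 7.92% in siControl_Both and 1.73% to 1.93% in control_FDI6. The handling of the control cells and the experiment cannot be told apart here, and each treatment was compared only with its own control.

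**Figure D1:**
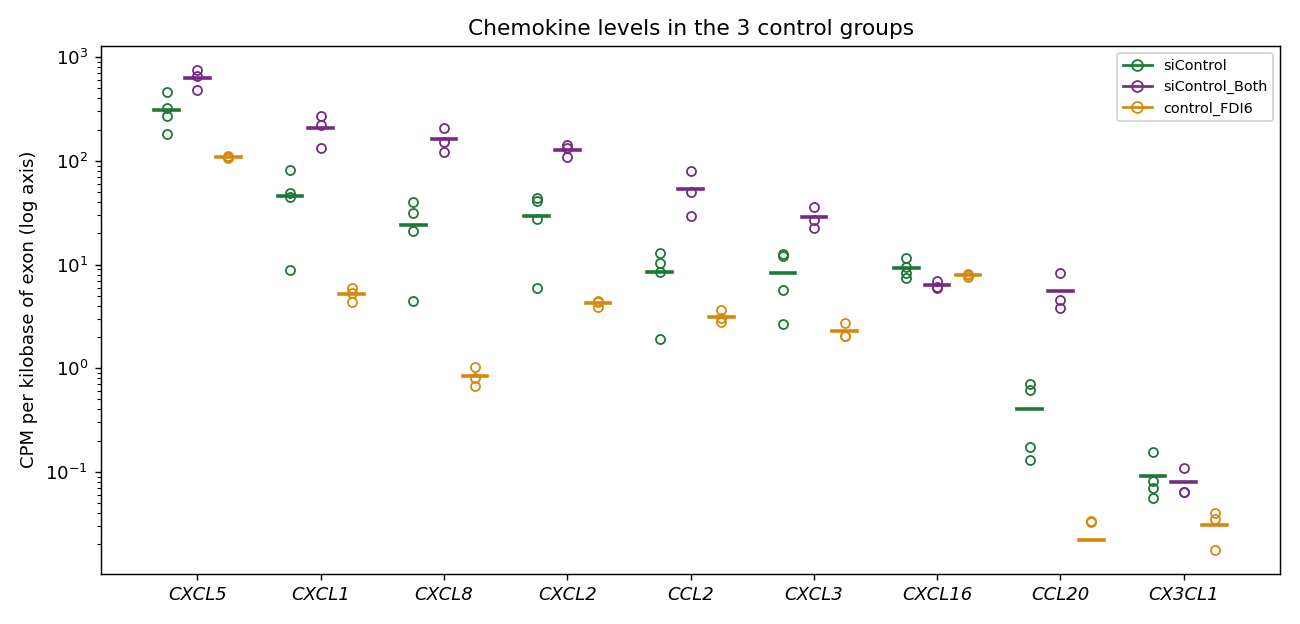
Level of 9 chemokine genes in the control libraries, as CPM per kilobase of exon on a log axis, with circles for libraries and bars for the mean of the 4 siControl, 3 siControl_Both and 3 control_FDI6 libraries. CXCL6 and a control_FDI6 library without a CCL20 count are not drawn. CXCL5 is highest in all 3 groups, and the other neutrophil-attracting genes drawn and CCL20 are highest in siControl_Both and lowest in control_FDI6.

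Within the single knockdowns the libraries numbered 4 lay below all others for CXCL1, CXCL2, CXCL3 and CXCL8 and above all others for CXCL16. The other chemokine genes overlapped. In library 4 CXCL8 was at 25.4 CPM in siMYBL2, 10.9 in siFOXM1 and 11.6 in siControl, while the other 9 libraries ranged from 35.1 to 209.5. CCL2 was at 14.4, 3.38 and 3.67 CPM in the same 3 libraries, with 12.7 to 90.7 in the others, so its siMYBL2 library 4 overlapped them. The epithelial adhesion gene CDH1 was at 81.4, 90.9 and 86.8 CPM in these 3 libraries and at 24.0 to 43.8 in the other 9. EPCAM was at 30.8, 37.8 and 35.6 CPM there and at 4.74 to 16.9 in the others. The part of this difference in the results was not tested, and results are given with the number as a block, and without number 4 where a call rests on it.

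The labelled cell type was checked with marker genes. The summed level of 5 epithelial markers was 2628.0 to 8004.0 CPM. Surfactant genes of alveolar type 2 cells were at 0 to 0.499 CPM in sum, with SFTPA1 at 0 in every library of 5 of the 7 groups. The 5 leukocyte markers reached 2.24 to 16.8 CPM, nearly all of it CD14, with CD3E at 0 in all 24 libraries and PTPRC at no more than 0.243 CPM. Endothelial markers were at 0 to 4.74 CPM and fibroblast markers at 5.76 to 60.7, of which COL1A1 gave the most. Between 16487394 and 30140550 read pairs per library were counted on genes.

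**Figure D2:**
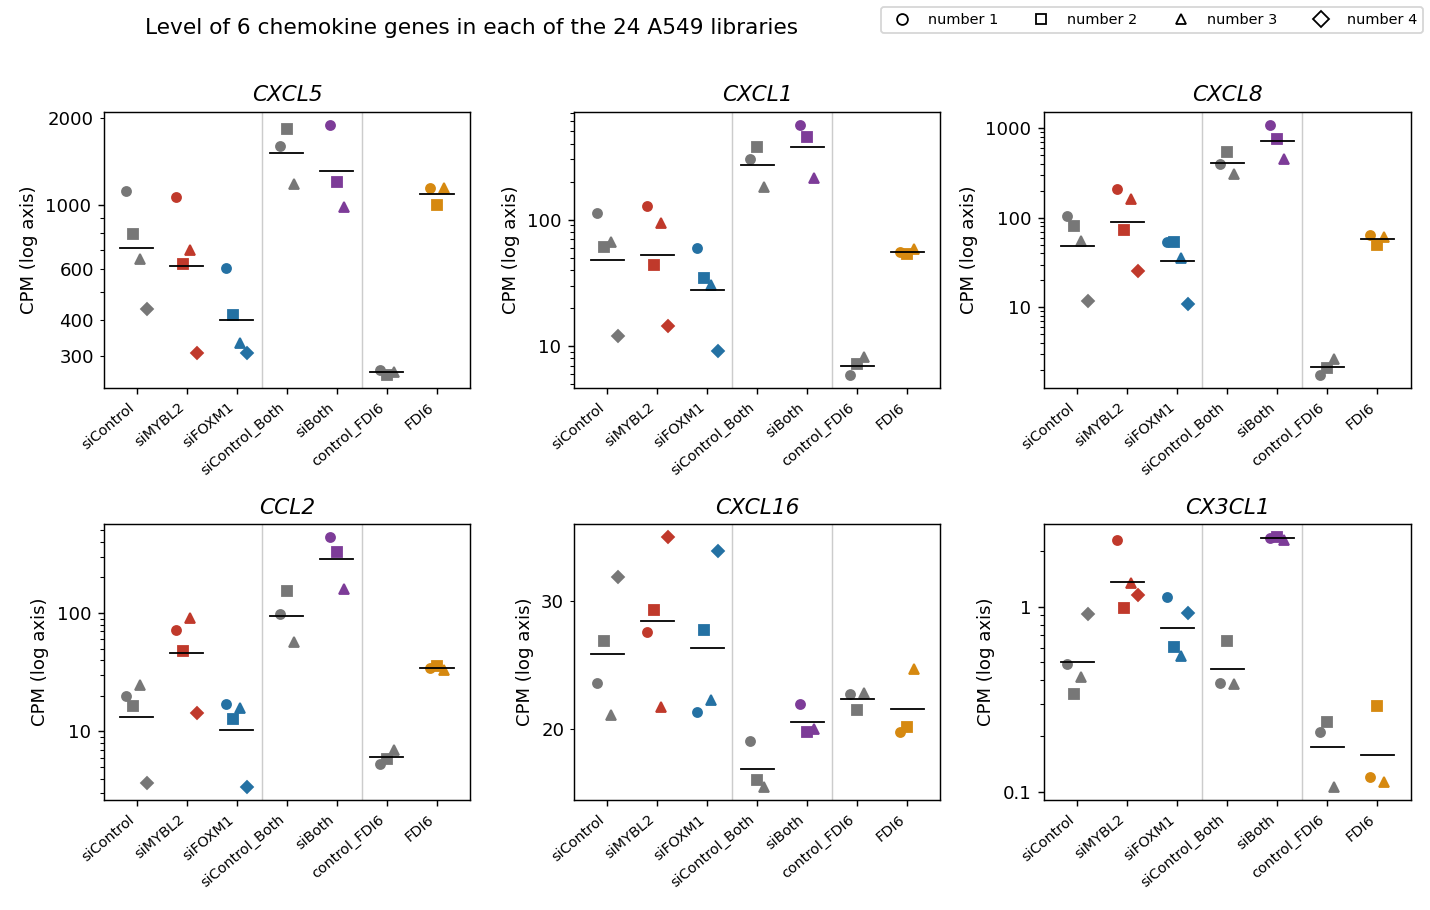
Level of 6 chemokine genes in each of the 24 libraries, as CPM on a log axis, with the groups along the x axis, the library number as the symbol, the geometric mean of each group as a bar, and lines between the 3 experiments. CXCL8, CXCL1 and CCL2 are lowest at number 4 in the single knockdowns, and CXCL16 varies little from group to group.

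Knockdown of MYBL2 was followed by higher levels of the monocyte attractant CCL2 and of CX3CL1, while the neutrophil-attracting genes did not move in 1 direction. The target itself fell, from 131.5 to 177.0 CPM of MYBL2 in siControl to 4.77 to 9.0 in siMYBL2 (log2 fold change −4.58 ± 0.20 (SE), edgeR adjusted p = 1.49e-05). Of the 10 chemokine genes, 9 passed the filter on low counts and only CX3CL1 was called, being higher. A call needed an adjusted p under 0.05 together with more than a 1.5-fold difference. Of all 16065 genes tested, 7.9% were called and 4.38% were called higher. With the library number as a block, 3 of the 9 were called, CCL2, CX3CL1 and CXCL8, all higher, against 12.4% of all genes and 7.68% in this direction. The median log2 fold change was 0.09 over the 9 chemokine genes and 0.01 over all genes tested.

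CX3CL1, the membrane-bound ligand of CX3CR1, stood at 2.29, 0.977, 1.34 and 1.15 CPM in siMYBL2 libraries 1 to 4 and at 0.492, 0.336, 0.416 and 0.918 in siControl. All 4 siMYBL2 libraries lay above all siControl libraries, which 15.5% of all genes also showed in this direction. These levels rest on 28 to 55 counts in siMYBL2 and 9 to 22 in siControl, and in bulk RNA the number of expressing cells and the RNA per cell cannot be told apart. The fit gave 2.54-fold higher levels (log2 1.35 ± 0.38, SE, adjusted p = 0.0389). The call was lost without siMYBL2 library 1 (adjusted p = 0.107) or 3 (0.0697) and without siControl library 1 (0.1), 2 (0.103) or 3 (0.0986), with log2 values of 1.03 to 1.38, and it was kept with the block (0.00272). The siControl counts alone would not pass the filter, so CX3CL1 entered this test through its siMYBL2 libraries. A filter of at least 10 counts in every library dropped it.

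CCL2 stood at 71.8, 47.9, 90.7 and 14.4 CPM in siMYBL2 and at 20.1, 16.5, 24.8 and 3.67 in siControl. Library 4 of siMYBL2 fell among the controls, so the groups overlapped, but every siMYBL2 library lay 2.89 to 3.93 times above the siControl library of the same number. The fold was 3.28 (log2 1.71 ± 0.61, SE, adjusted p = 0.0834), and with the block it was the same with a smaller error (log2 1.71 ± 0.07, SE, adjusted p = 2.1e-09). With 1 library left out and no block, CCL2 was called in 1 of 8 fits, the one without library 4 of siMYBL2, its lowest (log2 2.03, adjusted p = 0.0257). Over the 8 fits the log2 change was 1.37 to 2.03, with adjusted p up to 0.183. Without number 4 in both groups, a setting added after seeing the data, it was 1.69 (adjusted p = 0.00245). The share of all genes called in these fits was not counted. For comparison, 37.3% of all genes were higher in every same-numbered pair.

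CXCL8, the best known neutrophil attractant, stood at 209.5, 73.4, 163.7 and 25.4 CPM in siMYBL2 and at 103.5, 80.5, 54.8 and 11.6 in siControl. It was higher in the pairs numbered 1, 3 and 4, by 2.02, 2.99 and 2.20 times, and at 0.912 of the control in pair 2. The log2 change was 0.85 ± 0.70 (SE, adjusted p = 0.443), and 0.81 ± 0.19 with the block (adjusted p = 0.00285). The block error draws on other genes, while the log2 ratios of the 4 CXCL8 pairs had an SD of 0.731. CXCL1 had 127.9, 43.9, 93.7 and 14.5 CPM in siMYBL2 against 112.3, 60.7, 66.0 and 12 in siControl, and the ratio of same-numbered libraries ran from 0.724 to 1.42. CXCL5, with 1064.1, 625.4, 696.5 and 307.5 CPM against 1121.8, 793.1, 653.4 and 438.9, was lower in 3 of 4 pairs. Its log2 change with the block was −0.28 ± 0.07 (SE, adjusted p = 0.00678), which is below the fold of 1.5 needed for a call. CXCL2 (log2 −0.29 ± 0.61, SE), CXCL3 (0.01 ± 0.55), CXCL16 (0.09 ± 0.18) and CCL20 (−0.04 ± 0.71) were not called in either fit, and CXCL6, with 5 to 12 counts in siMYBL2 and 3 to 9 in siControl, was not tested.

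Among genes that act with the chemokines, none of 15 NF-κB subunits and feedback genes was called after MYBL2 knockdown without the block and 2 were with it. These were BIRC3, an inhibitor of apoptosis induced by NF-κB (log2 1.05 with the block), and the NF-κB inhibitor NFKBIE (0.61). Of 15 cytokine, adhesion and acute-phase genes often induced together with chemokines, 10 were tested, none was called, and 5 were called higher with the block (IL1B, ICAM1, CSF2, IL32 and IL11). The mRNA decay factor ZFP36L2 was called lower with the block (log2 −0.68), and ADAM10 and ADAM17 were not called. The leukocyte marker CD14 was higher in siMYBL2, at 8.39 to 15.7 CPM against 4.09 to 7.42 (log2 1.06 ± 0.23, SE, adjusted p = 0.0146), while CD3E was at 0 and PTPRC at 0.074 to 0.243 CPM in siMYBL2 and 0 to 0.125 in siControl. Of the 5 leukocyte markers 2 were tested and 1 was called, and its part in the chemokine values was not tested.

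**Figure D3:**
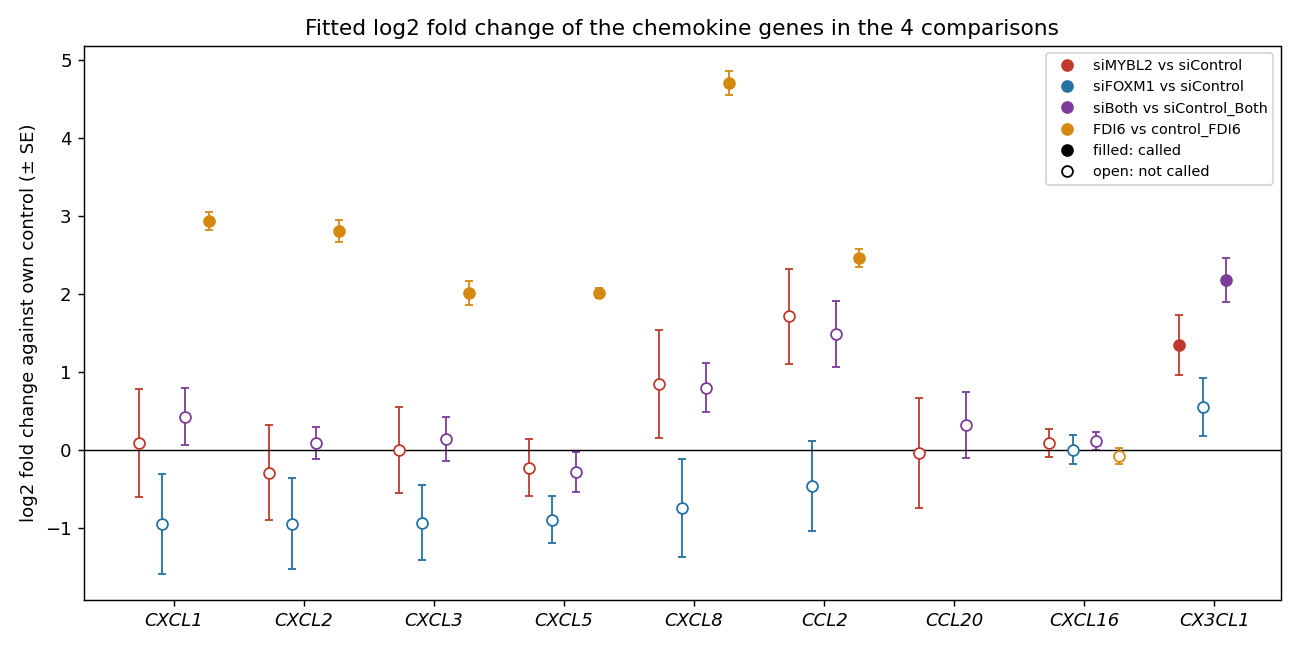
Fitted log2 fold change (y axis, with bars of 1 SE) of 9 chemokine genes in siMYBL2, siFOXM1, siBoth and FDI6 against their own controls, without the block, with filled symbols for called genes. Genes that did not pass the count filter in a comparison, and CXCL6, have no point. The 6 filled FDI6 points lie between 2.01 and 4.71, the siFOXM1 points of CXCL1, CXCL2, CXCL3, CXCL5, CXCL8 and CCL2 lie below 0, and the CXCL16 points lie near 0 in all 4 comparisons.

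Knockdown of FOXM1 was followed by lower levels of CXCL1, CXCL2, CXCL3, CXCL5 and CXCL8, 5 of the 6 neutrophil-attracting genes, in every same-numbered pair, a difference that was smaller than the spread among the libraries of a group. FOXM1 fell from 106.6 to 137.8 CPM in siControl to 10.4 to 13.2 in siFOXM1 (log2 −3.38 ± 0.11, SE, adjusted p = 2.34e-06). Of the 10 genes 8 passed the filter and none was called by edgeR without the block, where 0.667% of all 15892 genes were called. At an unadjusted edgeR p under 0.05 there was 1 gene, CXCL5, and DESeq2 called the same gene (adjusted p = 0.0338). With the block 5 of the 8 were called, all lower, against 2.52% of all genes and 1.47% in this direction. The median log2 fold change was −0.81 over the 8 genes and 0.00 over all genes tested.

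CXCL5 stood at 604.8, 416.8, 332.8 and 307.7 CPM in siFOXM1 libraries 1 to 4 and at 1121.8, 793.1, 653.4 and 438.9 in siControl. The groups overlapped, yet each siFOXM1 library had 0.509 to 0.701 of the level of its same-numbered control. With the block the fold was 1.82 lower (log2 −0.86 ± 0.05, SE, adjusted p = 8.05e-14). CXCL1 had 59.2, 34.6, 30.5 and 9.22 CPM against 112.3, 60.7, 66.0 and 12, or 0.462 to 0.770 of the paired control (block log2 −0.91 ± 0.06, SE, adjusted p = 1.05e-11). CXCL8 had 54.1, 53.9, 35.1 and 10.9 CPM against 103.5, 80.5, 54.8 and 11.6, or 0.523 to 0.944 of the paired control (block log2 −0.68 ± 0.07, SE, adjusted p = 1.08e-08). Pair 4 differed least for these 3 genes. The block errors draw on other genes, while the log2 ratios of the 4 pairs had SDs of 0.212 (CXCL5), 0.311 (CXCL1) and 0.354 (CXCL8). CXCL2 (block log2 −0.89 ± 0.07, SE) and CXCL3 (−0.86 ± 0.10) were also lower in 4 of 4 pairs, as were 15.6% of all genes tested.

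CCL2 had 17.0, 12.7, 15.7 and 3.38 CPM against 20.1, 16.5, 24.8 and 3.67, lower in 4 of 4 pairs by less than the fold needed for a call (block log2 −0.44 ± 0.08, SE, adjusted p = 0.000125). CX3CL1 was at 1.13, 0.603, 0.543 and 0.929 CPM against 0.492, 0.336, 0.416 and 0.918 and was not called (block log2 0.53 ± 0.30, SE, adjusted p = 0.198). CXCL16 had a log2 difference of 0.00 ± 0.19 (SE). CCL20, at 3 to 13 counts against 5 to 30, and CXCL6, at 3 to 5 against 3 to 9 and lower in 2 of 4 pairs, did not pass the filter. Without number 4 in both groups, CXCL2 was called without the block (log2 −0.98, adjusted p = 0.0424), and with the block 6 genes were called, CCL20 among them. The share of all genes called without number 4 was not counted, so these calls cannot be set against it. None of the 15 NF-κB genes and none of the 7 co-induced genes tested was called in either fit. With the block BIRC3 was lower by just under the fold needed for a call (log2 −0.58, adjusted p = 3.9e-12). The other NF-κB genes went in both directions, and the median log2 fold change of the 15 without the block was −0.07. Of the markers COL1A1 was called higher with the block, at 19.0 to 46.2 CPM in siFOXM1 against 12.6 to 26.9 (log2 0.65, adjusted p = 1.52e-08, and 0.436 without the block), and its part in the chemokine values was not tested.

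The siMYBL2 and siFOXM1 libraries were also compared directly. CCL2 was 4.51-fold higher in siMYBL2 than in siFOXM1 (log2 2.17 ± 0.58, SE, adjusted p = 0.026), the only call among 8 chemokine genes tested, where 10.2% of all genes were called and 5.86% called higher in siMYBL2. The call was lost without siMYBL2 library 1 (adjusted p = 0.0675) or 3 (0.0632) and without siFOXM1 library 2 (0.0638) or 3 (0.0508), with log2 values of 1.85 to 2.32. With the block CXCL1, CXCL3, CXCL8, CCL2 and CX3CL1 were all called higher in siMYBL2, against 14.3% of all genes and 8.49% in this direction. CXCL8 had a log2 difference of 1.45 ± 0.21 (SE, adjusted p = 7.25e-05) in that fit and CCL2 of 2.14 ± 0.09 (adjusted p = 1.94e-09). CXCL3, CXCL5 and CXCL8 were each called in 1 of the 8 fits with a library left out. Without library 4 of siMYBL2 4 genes were called, CCL2, CXCL3, CXCL5 and CXCL8, with log2 differences of 2.5, 1.24, 0.90 and 1.92. The share of all genes called in that fit was not counted. Of the markers CD14 was also higher in siMYBL2 than in siFOXM1 (log2 1.21 ± 0.28, SE, adjusted p = 0.0133), and EPCAM was called lower with the block alone (log2 −0.61, adjusted p = 0.000296). Their part in the chemokine values was not tested.

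**Figure D4:**
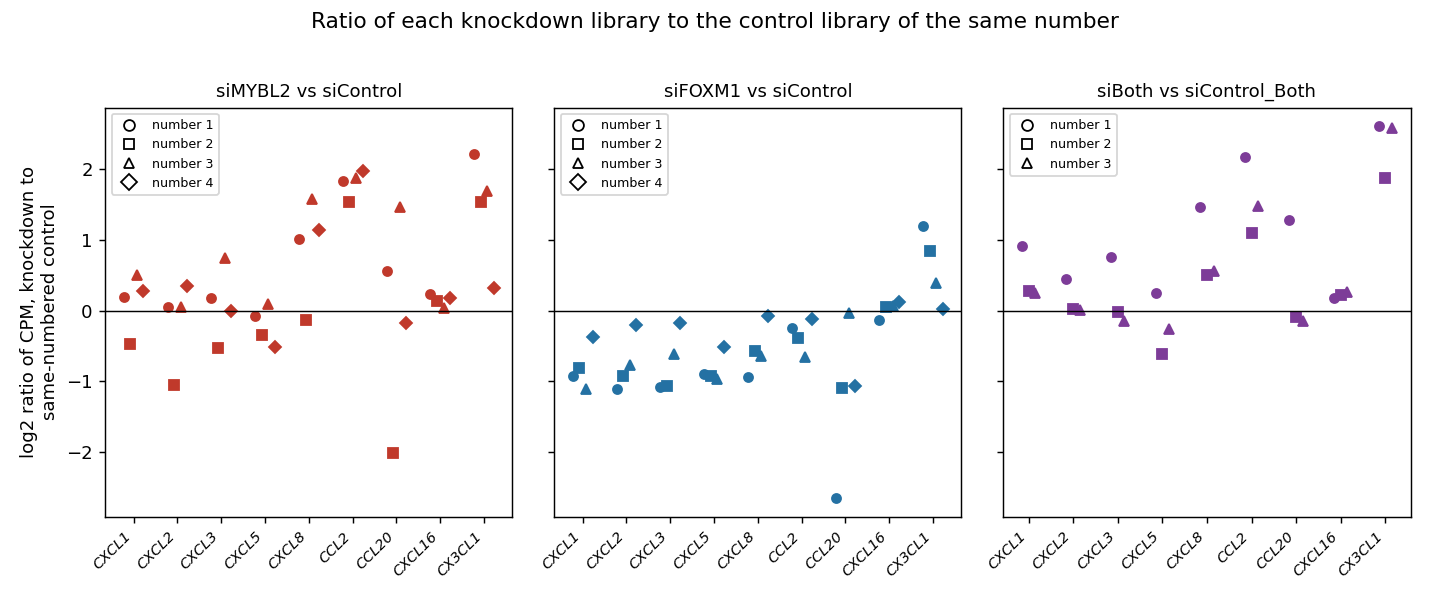
Log2 ratio of CPM in each knockdown library to the control library of the same number (y axis) for 9 chemokine genes, with the library number as the symbol. All 4 siFOXM1 points lie below 0 for CXCL1, CXCL2, CXCL3, CXCL5, CXCL8, CCL2 and CCL20, and all CCL2 and CX3CL1 points lie above 0 in siMYBL2 and siBoth.

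Knockdown of both factors, in an experiment whose control cells already had high chemokine levels, was followed by higher CX3CL1, CCL2 and CXCL8. MYBL2 was at 6.24 to 10.2 CPM in siBoth against 147.2 to 182.4 in siControl_Both, and FOXM1 at 10.2 to 15.5 against 118.0 to 136.3. Of the 10 genes 9 passed the filter and 1 was called, CX3CL1, where 6.44% of all 15812 genes were called and 2.8% called higher. With the block 3 were called, all higher, against 11.7% of all genes and 6.62% in this direction. The median log2 fold change was 0.32 over the 9 genes and 0.02 over all genes tested. Between 9.09% and 10.93% of read pairs did not align in siBoth, against 7.68% to 7.92% in siControl_Both, and the part of this in the values was not tested.

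CX3CL1 stood at 2.36, 2.38 and 2.30 CPM in siBoth and at 0.385, 0.651 and 0.383 in siControl_Both, without overlap, as 25.2% of all genes also were in this direction. These are 54 to 62 counts against 9 to 18. The fold was 4.53 (log2 2.18 ± 0.28, SE, adjusted p = 0.00306), and it was called with any 1 library left out. The CX3CL1 counts of siControl_Both alone would not pass the filter, so the gene entered this test through its siBoth libraries. A filter of at least 10 counts in every library dropped it. CCL2 stood at 441.0, 330.7 and 159.7 CPM against 97.8, 154.1 and 57.2, the lowest siBoth value just above the highest control. Its log2 change was 1.49 ± 0.42 (SE, adjusted p = 0.0555), and 1.48 ± 0.13 with the block (adjusted p = 4e-07). CXCL8 stood at 1098.1, 762.8 and 458.3 CPM against 396.6, 538.8 and 312.2, higher in 3 of 3 pairs by 1.42 to 2.77 times while the groups overlapped, and 42.9% of all genes were higher in every pair. Its log2 change was 0.80 ± 0.31 (SE, adjusted p = 0.133), and 0.74 ± 0.13 with the block (adjusted p = 0.000391). The log2 ratios of the 3 pairs had an SD of 0.542 for CCL2 and 0.544 for CXCL8. With 1 library left out and no block, each of these 2 genes was called in 1 of 6 fits. That was the fit without siBoth library 3, the lowest of its group for both (CCL2 log2 1.80, adjusted p = 0.0194, CXCL8 1.06, adjusted p = 0.0331). Over the 6 fits the log2 change of CCL2 was 1.12 to 1.90, with adjusted p up to 0.139. For CXCL8 it was 0.42 to 1.06, with adjusted p up to 0.349. The share of all genes called in these fits was not counted.

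The other neutrophil attractants differed less in the double knockdown. CXCL1 had 563.4, 450.2 and 214.6 CPM in siBoth and 299.7, 372.4 and 179.7 in siControl_Both (block log2 0.38 ± 0.10, SE, adjusted p = 0.00872, fold 1.30). CXCL5 had 1894.2, 1203.1 and 985.6 CPM against 1598.6, 1833.4 and 1184.4, lower in 2 of 3 pairs (block log2 −0.31 ± 0.11, SE, adjusted p = 0.0394, fold below 1.5). CXCL2 (log2 0.09 ± 0.20, SE), CXCL3 (0.14 ± 0.29), CXCL16 (0.12 ± 0.11) and CCL20 (0.32 ± 0.42) were not called. CXCL6 had 9, 11 and 23 counts in siBoth and 6, 3 and 5 in siControl_Both. Summed over libraries this was 43 counts against 14, a ratio of CPM of 3.14 with a 95% interval of 1.69 to 6.22 that covers counting error only, and the gene did not pass the filter.

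Of the 15 co-induced genes, all tested in siBoth, 3 were called higher, ICAM1, the leukocyte adhesion molecule (log2 1.16), IL11 (0.91) and CSF3, the neutrophil growth factor (1.94), and with the block 11 were. None of the 15 NF-κB genes was called, and NFKBIE (log2 0.75) was with the block. ZFP36L2 was lower in both fits (log2 −0.96 without the block). Of the other chemokines 3 were tested in siBoth. CCL24 was called at a mean of 10.8 counts (log2 1.89). At that mean and fold its control counts were low, so it may have entered this test through its siBoth libraries. With the block CCL5 (mean 47.3 counts, log2 1.80) and CCL26 (mean 23.3 counts, log2 0.88) were called higher as well. CD14 was at 10.5 to 12.4 CPM against 3.96 to 7.10 (log2 1.08 ± 0.24, SE, adjusted p = 0.0254), with PTPRC at no more than 0.0851 CPM in either group, and its part in the chemokine values was not tested. The difference between the siBoth effect and the siMYBL2 effect was tested in 1 fit of the 14 libraries. None of the 10 genes was called by edgeR with or without the block or by DESeq2, which gave no adjusted p for CXCL6 and CX3CL1. None had an unadjusted p under 0.05 in edgeR without the block, and 0.159% of all genes were called, or 1.59% with the block. Without the block the difference in log2 fold change was 0.84 ± 0.51 (SE) for CX3CL1, −0.22 ± 0.84 for CCL2 and −0.05 ± 0.91 for CXCL8. These errors are too wide to say that the effects are alike. With the block the differences were 0.86 ± 0.46, −0.24 ± 0.19 and −0.08 ± 0.29 (SE), and the lack of a call does not show that the effects are alike.

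All neutrophil attractants but CXCL6, and CCL2, were higher after FDI-6, with groups far apart and libraries close together. Of the 10 genes 7 passed the filter and 6 were called higher, CXCL8, CXCL1, CXCL2, CCL2, CXCL5 and CXCL3, where 13.8% of all 15240 genes were called and 8.0% were called higher. The median log2 fold change was 2.46 over the 7 genes and −0.01 over all genes tested. The same 6 genes were called by DESeq2, under both other scalings and with any 1 library left out. FOXM1 itself was at 91.2 to 111.7 CPM in FDI6 against 124.6 to 128.2 (log2 −0.37 ± 0.08, SE) and MYBL2 at 118.0 to 154.8 against 185.8 to 196.2 (log2 −0.51 ± 0.09), both below the fold needed for a call.

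CXCL8 stood at 63.5, 49.9 and 60.4 CPM in FDI6 and at 1.74, 2.09 and 2.65 in control_FDI6, a 26.1-fold difference (log2 4.71 ± 0.15, SE, adjusted p = 1.04e-08). CXCL1 stood at 55.3, 53.1 and 58.7 CPM against 5.89, 7.18 and 8.17 (7.67-fold, log2 2.94 ± 0.11, SE, adjusted p = 2.68e-08). CXCL5, already the most abundant in the controls, rose from 268.3, 258.4 and 265.4 CPM to 1149.6, 996.6 and 1141.7 (4.05-fold, log2 2.02 ± 0.07, SE, adjusted p = 1.04e-08). These 3 genes are neutrophil attractants, and in none did a treated library come near a control. CXCL2 rose 6.97-fold (log2 2.80 ± 0.14, SE) and CXCL3 4.03-fold (log2 2.01 ± 0.15), from 5.47 to 6.20 and from 4.51 to 5.99 CPM in the controls. CCL2 stood at 34.2, 35.4 and 33.2 CPM against 5.36, 5.85 and 7.0 (5.50-fold, log2 2.46 ± 0.11, SE, adjusted p = 9.06e-08). Groups that do not overlap in this direction were seen for 29.4% of all genes tested.

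The membrane-bound chemokines did not follow in FDI6. CXCL16 stood at 19.8, 20.1 and 24.2 CPM against 22.3, 21.2 and 22.4, overlapping and not called (log2 −0.08 ± 0.10, SE, adjusted p = 0.587). CX3CL1 had 9 counts in the 3 FDI6 libraries and 11 in the controls, a ratio of 0.937 with a counting interval of 0.343 to 2.49, so a difference in either direction within these bounds cannot be told from none at this depth. CCL20 had 19, 16 and 9 counts in FDI6 and 1, 0 and 1 in control_FDI6, a ratio of 25.2 with a counting interval of 6.57 to 214.5, and was below the filter. CXCL6 had 1 count in all 6 libraries.

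NF-κB genes and some co-induced genes were also higher in FDI6. Of the 15 NF-κB genes 7 were called higher and none lower, led by TNFAIP3, which restrains NF-κB signalling (4.93-fold), BIRC3 (4.55-fold) and the subunit REL (3.13-fold), while RELA was not called (log2 0.05 ± 0.09, SE). The median log2 fold change of the 15 was 0.58. Of the 6 co-induced genes tested 3 were called higher, ICAM1 (6.88-fold, at a mean of 31.5 counts), LCN2 (3.53-fold) and IL32 (2.22-fold). At that mean and fold the control counts of ICAM1 were low, so it may have entered this test through its FDI6 libraries. The mRNA decay factors ZFP36L1 (1.91-fold) and ZFP36 (1.54-fold) were called higher, and the proteases ADAM17 (1.49-fold, adjusted p = 0.00046) and ADAM10 (1.09-fold) stayed below the fold needed. Of 23 chemokine receptor genes 3 were tested and none was called. The summed level of the 5 epithelial markers was lower in FDI6, at 4284.5 to 5066.9 CPM against 7455.9 to 8004.0. Of 5 epithelial markers 3 were called lower, CDH1 (log2 −1.49), KRT8 (−0.81) and KRT18 (−0.65). EPCAM was lower (log2 −0.475) and KRT19 higher (log2 0.35, adjusted p = 0.00549), both below the fold needed for a call. The fibroblast marker COL1A1 fell as well (log2 −1.28). Their part in the chemokine values was not tested.

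The fold changes of CXCL1, CXCL2, CXCL3, CXCL5 and CXCL8 had opposite signs in FDI6 and siFOXM1, and the difference was tested in 1 fit of the 14 libraries of both experiments. The FDI6 effect exceeded the siFOXM1 effect in 7 of 9 genes tested, where 11.5% of all 17026 genes were called and 7.32% called higher. CCL20 was among the 7, with 1, 0 and 1 counts in control_FDI6. It did not pass the filter in either comparison alone, so its call adds little. The difference in log2 fold change was 5.44 ± 0.90 (SE) for CXCL8, 3.89 ± 0.83 for CXCL1 and 2.90 ± 0.36 for CXCL5, with adjusted p-values of 0.000901, 0.00485 and 0.000114. CXCL16 differed by −0.08 ± 0.25 (SE, adjusted p = 0.846). The drug was compared with other controls than the siRNAs, and the starting level of CXCL8 was 2.16 ± 0.46 CPM (SD, n = 3) in control_FDI6 and 62.6 ± 39.4 (SD, n = 4) in siControl, so drug and experiment cannot be told apart in this contrast.

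The abundant chemokine genes varied together over the 24 libraries. After log2(CPM + 0.5) and subtraction of the mean of the control of the same experiment, Pearson's r between CXCL1, CXCL2, CXCL3, CXCL5 and CXCL8 was 0.922 to 0.973 for each pair, and between CCL2 and these 5 genes 0.669 to 0.855. CXCL16 had r of −0.487 to −0.306 with all 6. The points share libraries, depth, controls and experiment, and the FDI6 libraries carry much of the range, so these values are descriptions over 24 libraries. A mean of 100 counts or more was reached by 11369 genes, chemokines and genes without a symbol included. Among the others of these, the most alike to CXCL8 was TNFAIP3 (r = 0.985) followed by SERPINB8 (0.98). SERPINB8 was also the first for CXCL1 (0.951), CXCL2 (0.961) and CXCL5 (0.95). For CXCL3 it was TNFAIP3 (0.942), for CCL2 SLC25A37 (0.961) and OPTN (0.959), and for CXCL16 CTH (0.898) and LRP5 (0.875).

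Some counts are less certain because of how read pairs are assigned. Of the 75-base windows of the annotated transcripts, 7.56% of those of CXCL2 and 4.57% of those of CXCL3 are shared with another gene of this family, against 0.233% for CXCL1 and none for CXCL5, CXCL8, CXCL16, CCL2, CCL20 and CX3CL1. CXCL6 shares 1.07% of its windows with the pseudogene PPBPP1. Of the exon bases of CXCL5 17.32% overlap a gene on the other strand, and of CXCL16 6.16%, and the strand setting of the counting is not given in the sources used here, so reads from either strand cannot be told apart there.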

How the data were processed

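PolyA RNA of A549 cells was sequenced as paired-end reads in 24 libraries. The authors trimmed reads with Trim Galore, aligned them with STAR to hg38 and counted read pairs per gene with HTSeq and GENCODE annotation, and the deposited values are raw counts, 1 file per library. Tool versions and the strand setting are not given in the sources used here. Between 16487394 and 30140550 pairs per library fell on genes, 73.8% to 81.5% of the pairs, and summary lines that name no gene were left out. Of 58721 gene ids, 58207 matched a symbol in GENCODE V44.

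CPM are counts per library total on genes. The libraries of a comparison alone entered its fit in edgeR 4.0.16 (R 4.3.3), using filterByExpr, TMM scaling, the quasi-likelihood test and Benjamini-Hochberg adjustment over all genes tested, and every adjusted p is from edgeR unless DESeq2 is named. A call needed an adjusted p under 0.05 together with more than a 1.5-fold difference. Counting intervals are exact binomial intervals at 95%, a count of 0 allows up to 3 counts, and both cover counting error only. The fits were tested on simulated counts.

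Libraries of the same number deviated together from their group means. The lowest correlation over same-numbered pairs was 0.573 for siMYBL2, 0.539 for siFOXM1 and 0.553 for siBoth, so these numbers were taken as pairs and the number was added as a block beside the fit without it. For FDI6 the lowest was −0.288, so these numbers were not taken as pairs. No pair of libraries within a group agreed within sampling noise, with a chi-square per gene of at least 3.57.

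The fits were repeated with DESeq2 1.42.0, with upper-quartile or RLE scaling, without the filter, with a minimum of 10 counts per library, with the block, with all 12 single-knockdown libraries together, and with each library left out. Leaving out number 4 was added after seeing the data. The chemokine genes and the other lists were chosen with earlier results of these data known, and the promoter words after reading the promoters. Named were the 10 chemokine genes, the siRNA targets, up to 3 called genes of each list with a mean of at least 100 counts, the most alike genes and the most counted other chemokines. Marker genes, genes called only with the block, ADAM10, ADAM17, RELA, FDI6 ICAM1 and siBoth CCL24 were named after their values were seen.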

Additional observations from a re-analysis of the deposited data

Results flagged for a closer look

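In the direct comparison of the single knockdowns, CCL2 differed between the siMYBL2 and siFOXM1 libraries by 2.17 on the log2 scale (edgeR adjusted p = 0.026). The siMYBL2 libraries held 71.8, 47.9, 90.7 and 14.4 CPM and the siFOXM1 libraries 17.0, 12.7, 15.7 and 3.38, and in each numbered pair the siMYBL2 library was the higher.

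The FDI6 effect and the siFOXM1 effect differed in a test of the difference itself for 7 genes. The log2 difference was 3.89 for CXCL1, 3.74 for CXCL2, 2.94 for CXCL3, 2.905 for CXCL5, 5.44 for CXCL8, 2.92 for CCL2 and 5.765 for CCL20, all higher with FDI-6. The CCL20 value rests on 2 counts in the 3 control_FDI6 libraries. The 2 effects come from separate experiments with separate controls, so treatment and experiment cannot be told apart.

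Within siMYBL2, siFOXM1 and siControl, each of the 10 genes was tested for a library whose CPM lay far from the other 3 of its group. Of these 30 tests 0 passed, where chance gives about 1 in 20. The libraries numbered 4, which stood apart for some of the genes over all 3 groups together, did not pass this test within a group. It can hardly pass where the other 3 libraries are spread out. In siMYBL2, CXCL8 was at 209.5, 73.4 and 163.7 CPM in those and at 25.4 in number 4. The test therefore cannot decide whether number 4 is an outlier within its group.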

How the results depend on the processing

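Of 1018 single-gene alternatives, 900 kept direction and side of the threshold, 9 lost a call, 44 gained one and 65 changed direction. Why a value moved was not tested. The share of all genes called was counted only for the main fits and those with the block, so the other counts below have no such share beside them. The number of chemokine genes called for siMYBL2 was 1, and 2 without a filter, 0 with at least 10 counts in every library (which drops CX3CL1), 3 with the replicate block, 2 without number 4, 3 without number 4 and with the block, and 0 to 2 with 1 library left out. For siFOXM1 it was 0, and 1 with DESeq2, 5 with the block, 1 without number 4, 6 without number 4 and with the block, and 0 with any 1 library left out. For siBoth it was 1, and 2 with DESeq2 or upper-quartile scaling, 3 without a filter, 0 with at least 10 counts in every library (which drops CX3CL1), 3 with the block, and 1 to 3 with 1 library left out. For siMYBL2 minus siFOXM1 it was 1, and 2 without a filter, 5 with the block, 4 without number 4, 7 without number 4 and with the block, and 0 to 4 with 1 library left out. For FDI6 it was 6 with the block, whose numbers share no pairing there, and 6 to 7 with 1 library left out, CCL20 being the one gained. The difference between the FDI6 and siFOXM1 effects gave 7, and 6 with at least 10 counts in every library.

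None of the values that changed direction had been called. CXCL3 in siMYBL2 was −0.0075 with all 12 libraries in 1 fit, CCL20 in siMYBL2 was 0.012 with upper-quartile scaling, and CXCL16 in siFOXM1 was −0.0039 without a filter, −0.0037 with the block, −0.00075 with all 12 libraries, −0.037 without number 4 and −0.038 without number 4 and with the block. With 1 library left out the log2 change in siMYBL2 ran from −0.38 to 0.53 for CXCL1, −0.74 to 0.014 for CXCL2, −0.35 to 0.31 for CXCL3, −0.54 to 0.030 for CXCL5, −0.050 to 0.21 for CXCL16 and −0.74 to 0.37 for CCL20. It ran from −0.17 to 0.13 for CXCL16 in siFOXM1, and in siBoth from −0.18 to 0.26 for CXCL2, −0.16 to 0.40 for CXCL3 and −0.12 to 0.73 for CCL20. For siMYBL2 minus siFOXM1 it ran from −0.061 to 0.25 for CXCL16, and for FDI6 minus siFOXM1 from −0.21 to 0.091 for CXCL16. For the siBoth effect minus the siMYBL2 effect it ran from −0.10 to 0.81 for CXCL1, −0.17 to 0.49 for CXCL3, −0.40 to 0.26 for CXCL5, −0.42 to 0.39 for CXCL8, −0.10 to 0.17 for CXCL16, −0.60 to 0.19 for CCL2 and −0.071 to 1.07 for CCL20. Depth limits CXCL6, CCL20 and CX3CL1, which had few counts.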
